A study of Mus musculus with 14 samples.

Results

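TLR4-/- microglia sorted from the cortex of mice after ischaemia-reperfusion were compared with TLR4-/- microglia from sham-operated mice. The comparison rests on 6 of the 14 arrays of the study, 3 after ischaemia-reperfusion (I/R; title letters B, C and D) and 3 after sham surgery (letters A, B and D). It covers all 19938 genes to which an array row could be assigned by 1 gene symbol. The other 8 arrays, 4 I/R and 4 sham, came from wild-type mice. They show where the TLR4-/- change differed, and they share in the estimate of the spread behind each TLR4-/- SE and p-value.

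All mice were C57BL/6J males, 12 to 14 weeks old. In the I/R groups a filament passed into the middle cerebral artery occluded it for 15 min under isoflurane, and the tissue was reperfused for 72 h. Sham mice had sham surgery under the same anaesthetic. Microglia were sorted from the cortex on the operated side, and their total RNA was hybridised to Affymetrix Mouse Gene 1.0 ST arrays, 1 sample per array. TLR4-/- names the mouse and not its microglia alone, so other cells of these mice carried the genotype too. The sources used here do not explain the allele, the sort markers or the abbreviation IPC in the titles. The labels do not say that each array held a separate mouse, so the p-values speak only of how far these arrays vary, which could be technical.

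The labelled cell type was checked on the 6 arrays. A list of 11 microglia markers had array means of 11.19 to 11.29 after sham and 10.84 to 10.95 after I/R on the deposited log2 scale. Olfactory receptor genes, which serve as background, had a median of 2.95 over 1027 genes. Their 95th percentile, 4.67, is used as the upper edge of background, and 62.9% of genes had a mean above it. Array medians over the 14 arrays ran from 4.93 to 5.12. In a principal component analysis of the 6 arrays the first component held 56.1% of the variance and separated I/R from sham. The second held 15.6% and spread the I/R arrays, with B at 28.8, C at -6.43 and D at -21.1. Among the TLR4-/- arrays, Pearson correlations over all genes ran from 0.989 to 0.991 between sham arrays and from 0.985 to 0.990 between I/R arrays. They ran from 0.971 to 0.976 between a sham and an I/R array.

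The Tlr4 row gave signal in mice labelled TLR4-/-. It stood at 8.47, 8.15 and 8.33 on sham arrays A, B and D and at 8.40, 8.04 and 7.62 on I/R arrays B, C and D. The ranges overlapped, and the change of -0.30 (SE 0.17) did not pass the test (limma adjusted p = 0.355). The sources used here do not say what the allele changes in the gene or where the probes lie relative to it, and the row is no check of the genotype.

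TLR4 is the receptor for bacterial lipopolysaccharide and for some molecules released by damaged cells. It signals through the adaptor MyD88 towards NF-kB and cytokine genes, and through the adaptor TRIF towards interferon regulatory factors and interferon beta. Secreted type I interferon acts on its own receptor, and the kinases JAK1 and TYK2 then activate transcription factors that bind interferon-stimulated response elements in the promoters of antiviral genes. Nucleic acid sensors in the cytosol and endosome reach the same genes without TLR4. Microglia, the resident macrophages of the brain, lose part of their resting gene programme and divide after ischaemia.

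The promoters of 4 genes that rose are shown because the lists below turn on their kind. Each is the 250 bases before the RefSeq start, build GRCm38.p6, 5′ to 3′ along the gene's strand. In the promoters of Cxcl10 (chr5:92348890-92349139, minus strand) and Ifit3 (chr19:34583279-34583528, plus strand) capitals mark matches on either strand to the interferon-stimulated response element, spelled as GAAA, any 2 bases and GAAA. In those of Top2a (chr11:99024190-99024439, minus strand) and Cdk1 (chr10:69352913-69353162, minus strand) capitals mark the CCAAT box, read as ATTGG on the other strand, and the cell cycle genes homology region TTTGAA, read as TTCAAA.
Cxcl10: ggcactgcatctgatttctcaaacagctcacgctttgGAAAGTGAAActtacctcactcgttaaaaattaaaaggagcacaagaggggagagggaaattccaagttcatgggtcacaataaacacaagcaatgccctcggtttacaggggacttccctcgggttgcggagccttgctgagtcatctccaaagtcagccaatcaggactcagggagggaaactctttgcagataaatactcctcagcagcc
Ifit3: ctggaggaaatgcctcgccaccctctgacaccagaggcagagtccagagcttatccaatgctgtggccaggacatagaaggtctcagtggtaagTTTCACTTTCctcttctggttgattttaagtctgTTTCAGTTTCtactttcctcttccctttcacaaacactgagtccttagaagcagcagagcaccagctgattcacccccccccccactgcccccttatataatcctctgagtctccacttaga
Top2a: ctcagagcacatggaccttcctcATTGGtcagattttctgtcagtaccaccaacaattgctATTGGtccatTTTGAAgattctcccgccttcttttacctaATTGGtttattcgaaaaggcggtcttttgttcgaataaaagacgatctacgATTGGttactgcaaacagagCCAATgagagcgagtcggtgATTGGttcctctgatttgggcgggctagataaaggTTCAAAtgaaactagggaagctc
Cdk1: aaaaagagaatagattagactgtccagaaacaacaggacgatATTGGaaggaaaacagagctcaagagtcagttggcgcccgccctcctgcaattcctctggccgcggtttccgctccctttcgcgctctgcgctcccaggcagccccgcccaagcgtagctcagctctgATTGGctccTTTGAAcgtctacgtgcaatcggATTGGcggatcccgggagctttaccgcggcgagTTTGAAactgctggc

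The Cxcl10 match lies at -213 to -204 from the start, and the pair in Ifit3 at -156 to -147 and -122 to -113. Top2a holds 6 CCAAT boxes and 2 TTTGAA matches, the nearer of which is at -23 to -18. Cdk1 holds 3 CCAAT boxes and 2 TTTGAA matches, the nearer at -15 to -10. RefSeq promoters were found for 15614 of the genes, and both strands of the same 250 bases were searched. The response element was present in 2.93% of all of these promoters, in 6.77% of those of genes called higher, in 10.5% of those of genes called higher at a fold of at least 2, and in 1.97% of those called lower. Among the interferon-induced antiviral effectors described below 10 of 27 promoters (37.0%) held it. CCAAT was present in 35.5% of all promoters and in 35 of 52 mitosis promoters (67.3%), and TTTGAA in 13.7% and in 19 of 52 (36.5%). Other lists held them too. The homeostatic microglia list, which fell, held CCAAT in 12 of 23 promoters (52.2%) and TTTGAA in 1 (4.35%). TTTGAA was in 6 of 27 effector promoters (22.2%) and 3 of 12 chemokine promoters (25.0%). The E2F motifs TTTGGCGC or TTTCCCGC were present in 1.93% of all promoters and in 6 of 34 DNA replication promoters (17.6%). A single spelling of the NF-kB motif was searched, GGG, any 2 bases and TTTCC. It was present in 1.3% of all promoters, in 1.6% of those called higher and in 3 of 12 chemokine promoters (25.0%). Other spellings of NF-kB sites were not searched, so these shares do not count all such sites. These shares describe letters in a window and were not tested.

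Of the 19938 genes, 1628 (8.17%) passed limma at an adjusted p under 0.05, 1004 (5.04%) higher and 624 (3.13%) lower after I/R. The rises were larger than the falls. The median change of the genes called higher was 0.95 on the log2 scale and that of the genes called lower was -0.62. At a fold of at least 2, 458 genes (2.3%) were higher and 46 (0.231%) lower. At a fold of at least 4 the numbers were 147 and 0, at 8 they were 37 and 0, and at 16 they were 9 and 0. All genes together had a median change of -0.03, and 43.8% of them had a positive change. The counts depend on single arrays. Without sham array A 970 genes were called, 658 higher and 312 lower, and without I/R array C 1071 were called, 333 of them lower. Without sham array D 378 were lower.

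**Figure D1:**
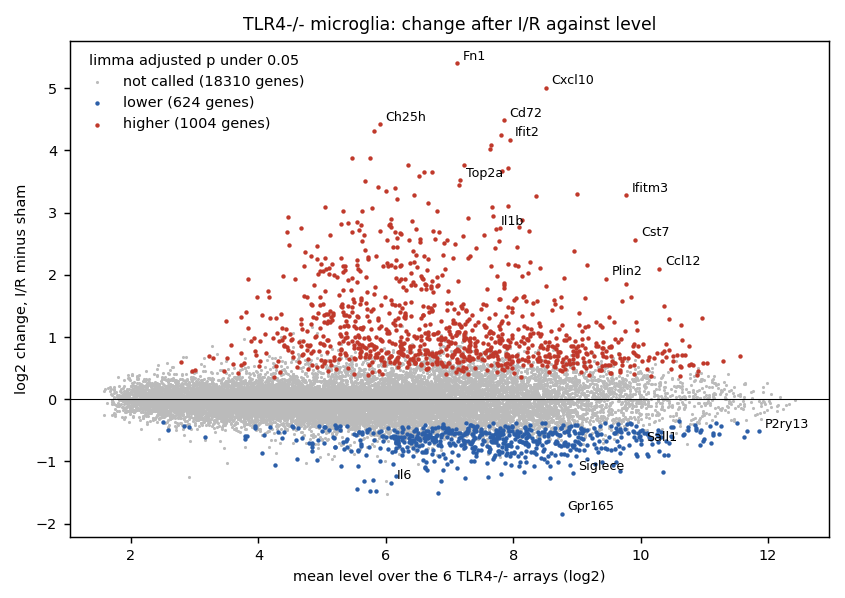
Log2 change of each of 19938 genes after I/R in TLR4-/- microglia (vertical axis, I/R minus sham) against its mean log2 level on the 6 arrays (horizontal axis). Red points are the 1004 genes called higher, blue points the 624 called lower and grey points the rest; the red points reach above 5 while no blue point lies under -2.

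Most calls rested on arrays that did not overlap. The 3 I/R arrays all lay above the 3 sham arrays for 2204 genes (11.1%) and all below them for 2501 genes (12.5%). Among the called genes this held for 989 of the 1004 higher and 612 of the 624 lower genes. The median SD of a gene was 0.154 over the sham arrays and 0.175 over the I/R arrays, and the median SE of a change was 0.152. For 184 genes called higher the sham mean lay in the background range, where the size of a change is limited by background. For 30 genes called lower the I/R mean did. Both means were above background for 820 genes called higher and 594 called lower. In sorted bulk RNA, fewer cells of a type and less RNA per cell cannot be told apart, here and in all results below.

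In what follows, values of a gene are given in the order sham arrays A, B and D and I/R arrays B, C and D. A change is the log2 difference of the group means, I/R minus sham, with its SE from limma (n = 3 arrays per group). Where a call ended on dropping an array, the limma adjusted p without it stands in brackets. Counts of called list members are to be read beside the shares of all genes, 5.04% higher and 3.13% lower. Fn1, which encodes the matrix protein fibronectin, led the rises. It stood at 4.35, 4.42 and 4.49 on the sham arrays, in the background range, and at 9.42, 9.99 and 10.06 on the I/R arrays. Cxcl10, a chemokine that draws activated T cells, went from 6.06, 5.64 and 6.33 to 11.08, 11.06 and 10.93. Cd72, a surface receptor with inhibitory signalling motifs, went from 5.97, 5.03 and 5.83 to 9.83, 10.23 and 10.21. In each of the 3 the I/R arrays lay close together and far above every sham array. Fxyd5, a regulator of the sodium pump and of cell adhesion, rose from 7.15, 7.40 and 7.50 to 10.19, 10.93 and 10.86 (change 3.31, SE 0.23, limma adjusted p = 9.23e-08).

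**Figure D2:**
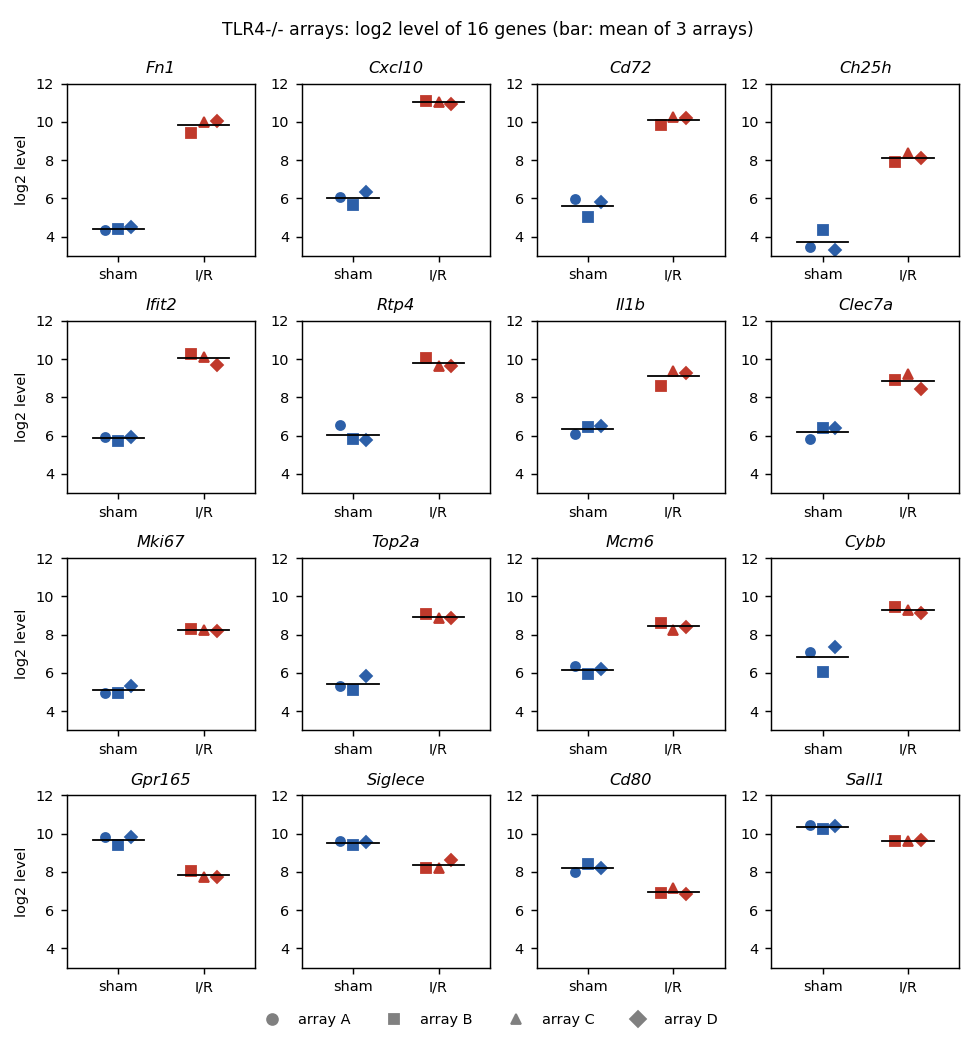
Log2 level of 16 genes on the 3 sham arrays (blue) and the 3 I/R arrays (red) of TLR4-/- microglia; symbols give the title letter of the array and bars the mean of 3 arrays. In each panel the sham and I/R arrays do not overlap, with Fn1 and Cxcl10 at one end and Cd80 and Sall1 among those that fell.

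Interferon-induced antiviral effector genes rose as a group. Of 36 measured members 28 were called higher and 0 lower, against 5.04% and 3.13% of all genes, and their median change was 1.71 against -0.03 for all genes. The array means of the list were 6.28 to 6.33 after sham and 8.14 to 8.28 after I/R. All 4 measured IFIT genes, whose products bind viral RNA, rose, by 3.77 to 4.18. Ifit2 went from 5.95, 5.72 and 5.90 to 10.28, 10.14 and 9.69 and Ifit3 from 5.20, 5.66 and 5.98 to 9.75, 9.77 and 9.56. Every I/R array of both genes was at least 3 log2 units above every sham array. Rsad2, which encodes the antiviral enzyme viperin, went from 4.80, 4.72 and 4.79 to 8.66, 8.83 and 7.77 (change 3.65, SE 0.35, limma adjusted p = 2.69e-06). I/R array D was the lowest of the I/R arrays for Ifit2, Ifit1 (8.59, 8.48 and 7.64) and Rsad2, and still lay above all sham arrays.

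Other effectors differed in size. Ifitm3, a membrane protein that blocks entry of viruses, went from 7.90, 8.07 and 8.43 to 11.50, 11.31 and 11.43 (change 3.28, SE 0.24, limma adjusted p = 1.56e-07). Rtp4, a chaperone with antiviral activity, went from 6.55, 5.85 and 5.77 to 10.06, 9.65 and 9.63 (change 3.72, limma adjusted p = 4.42e-07). Sham array A was higher than the other sham arrays for Rtp4. Of 6 measured genes for RNase L and the enzymes that make its activating oligoadenylates 5 were called, led by Oasl2 (3.77, SE 0.28) and Oas1a (2.66, SE 0.25). The GTPase gene Mx1 rose by 2.31, the tetherin gene Bst2 by 1.99 and the kinase gene Eif2ak2, which stops translation on sensing double-stranded RNA, by 1.59. The calls of Mx2 and Oas3 rested on single arrays. Mx2 (0.94) was not called on dropping sham A (0.107), sham D (0.0717), I/R C (0.0626) or I/R D (0.0609), and Oas3 (0.76) was not called on dropping sham A (0.072), I/R B (0.0519) or I/R C (0.0993). Oas1b (0.60, limma adjusted p = 0.104), the deaminase gene Apobec3 (0.37), the nucleotide hydrolase gene Samhd1 (0.30), Ly6e (0.15) and Ifi27 (-0.02) did not pass.

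Sensors of nucleic acids were part of the response. Of 13 measured sensors and adaptors 9 were called higher and 1 lower. Zbp1, a sensor of Z-form nucleic acid, went from 6.35, 5.43 and 6.18 to 9.87, 9.36 and 9.73 (change 3.66, SE 0.27, limma adjusted p = 2.15e-07). Ifi207, a member of the PYHIN family that holds DNA sensors, went from 6.38, 5.98 and 6.72 to 9.60, 9.47 and 9.35 (change 3.11, SE 0.21). No I/R value of either gene reached down to a sham value. Of the helicases that sense viral RNA, Dhx58 (LGP2) rose by 2.13 and Ifih1 (MDA5) by 1.34 (SE 0.22, limma adjusted p = 0.000745). The adaptors were not called higher. Mavs, through which these helicases signal, did not pass (-0.38). Sting1, the adaptor of cytosolic DNA sensing, was called lower (-0.50, limma adjusted p = 0.0238) but not on dropping sham A (0.0735), sham D (0.0782), I/R B (0.0627) or I/R C (0.116) or with only the 6 TLR4-/- arrays in the model (0.0653) or with centred arrays (0.0589).

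The enzymes that attach or remove the ubiquitin-like ISG15 and poly-ADP-ribose polymerases of the antiviral response were called higher in 6 of 10 cases and lower in 0. Usp18, the ISG15 protease that also restrains the interferon receptor, went from 5.44, 5.63 and 5.19 to 8.87, 8.82 and 8.92 (change 3.45, SE 0.26, limma adjusted p = 2.18e-07). The conjugating enzyme gene Ube2l6 rose by 1.93, Parp12 by 1.19, Parp9 by 0.98 and Parp14 by 0.86. Of 9 interferon-inducible GTPases, which act on vacuoles of pathogens and respond above all to interferon gamma, 3 were called higher. The immunity-related GTPase genes Irgm1 (1.48) and Iigp1 (2.18, from a sham mean in background) rose, while 6 of the 7 guanylate-binding protein genes did not pass. The exception, Gbp4 (1.37), was not called on dropping sham B (0.0561) or I/R B (0.0519).

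Of 27 measured genes that make, receive or transmit interferon 2 (7.4%) were called higher and 2 (7.4%) lower, near the shares of all genes, with a median of -0.08. None of the 6 measured interferon genes was called, and Ifnb1 lay in background on all 6 arrays (3.06, 2.89 and 2.98 after sham, 3.13, 4.64 and 3.34 after I/R, limma adjusted p = 0.267). I/R array C stood above the others for Ifnb1. The receptor genes Ifnar1 (0.00) and Ifnar2 (-0.16) and the kinase genes Jak1 (-0.25) and Tyk2 (-0.03) did not pass. Ifngr1, the ligand-binding chain of the interferon gamma receptor, was called lower (-0.56), though not on dropping I/R C (0.0509).

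The transcription factors of the pathway split. Irf7, the factor that amplifies type I interferon production and is itself interferon-induced, went from 4.98, 4.38 and 5.05 to 7.15, 7.37 and 7.97 (change 2.69, SE 0.29, limma adjusted p = 9.81e-06). Stat2, a subunit of the complex that binds the response element, went from 6.48, 6.54 and 7.29 to 8.29, 8.07 and 8.33 (change 1.45, SE 0.23, limma adjusted p = 0.000646). Irf2, which represses part of these promoters, fell from a sham mean of 10.15 ± 0.13 (SD, n = 3) to 9.65, 9.71 and 9.52 (change -0.52, SE 0.12, limma adjusted p = 0.0086). In all 3 genes the groups did not overlap. Irf9 (0.42), Irf1 (-0.02) and Irf3 (-0.29) did not pass.

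Of 14 measured class I antigen presentation genes 4 (28.6%) were called higher and 0 lower (median 0.30), against 5.04% and 3.13% of all genes. H2-D1 and H2-K1 were among the class I genes not measured. Of 7 class II genes 0 were called in either direction (median 0.06), a list too short to tell from the shares of all genes. Psme2, a subunit of the proteasome activator, rose by 1.13 (SE 0.17, limma adjusted p = 0.000444). The class I molecule genes H2-Q4 (0.94) and H2-M3 (0.80) rose. The peptide transporter gene Tap1 (0.77) was not called on dropping sham A (0.0667) or I/R D (0.0687). B2m, the shared light chain of class I molecules, did not pass (-0.16). Class I heavy chain genes are near-identical copies, so their signals may be shared.

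Of 27 measured Toll-like receptor and adaptor genes 2 (7.4%) were called higher and 1 (3.7%) lower, near the 5.04% and 3.13% of all genes, and the median was -0.02. Tlr2, the receptor for bacterial lipopeptides, rose from 8.73, 9.04 and 9.12 to 10.14, 10.30 and 10.16 (change 1.24, SE 0.14, limma adjusted p = 1.23e-05), and the arrays of the groups did not overlap. The calls of Tlr1 (0.44), which pairs with Tlr2, and Tlr9 (-0.62), a DNA receptor, did not hold. Tlr1 was not called on dropping sham A (0.0901), sham D (0.178), I/R B (0.0734), I/R C (0.153) or I/R D (0.0521) or with only the 6 TLR4-/- arrays in the model (0.119). Tlr9 was not called on dropping sham A (0.0975), sham B (0.073), sham D (0.0967), I/R B (0.108), I/R C (0.0879) or I/R D (0.0506) or with centred arrays (0.0863). The RNA receptors Tlr3 (-0.02) and Tlr7 (-0.31), the adaptors Myd88 (0.21) and Ticam1, which encodes TRIF (-0.09), and the lipopolysaccharide co-receptors Cd14 (0.13) and Ly96 (0.11) did not pass.

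Among 12 NF-kB subunits and feedback inhibitors, 1 (8.3%) was called higher and 0 lower, near the 5.04% and 3.13% of all genes. It was Relb (0.39, limma adjusted p = 0.0453), and its call ended on dropping sham A (0.0948), sham B (0.0906), sham D (0.138), I/R B (0.0542), I/R C (0.142) or I/R D (0.105) or with only the 6 TLR4-/- arrays in the model (0.101) or with trend and robust settings (0.0637). The inhibitor genes Nfkbia (0.18) and Tnfaip3 (0.04), both quickly induced NF-kB targets, did not pass.

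Chemokine genes rose broadly. Of 18 measured members 11 were called higher and 0 lower, with a median of 1.12, and without single arrays the number ran from 8 to 10. Besides Cxcl10, the CC chemokine Ccl5, which attracts T cells, went from 6.61, 5.82 and 6.19 to 8.94, 9.35 and 9.18 (change 2.95, SE 0.37, limma adjusted p = 4.85e-05). Ccl2, the ligand of the monocyte receptor CCR2, went from 7.80, 7.08 and 7.96 to 9.34, 9.66 and 9.29 (change 1.81, SE 0.22, limma adjusted p = 3.92e-05). Ccl12, another mouse ligand of CCR2, went from 9.21, 9.05 and 9.49 to 11.36, 11.29 and 11.38 (change 2.09, SE 0.18, limma adjusted p = 1.14e-06). The highest sham array was below the lowest I/R array in each. Ccl4 rose by 1.65, Cxcl16 by 1.61, the B cell attractant Cxcl13 by 1.62 and Cxcl11 by 1.17. The calls of Ccl3 (0.69, limma adjusted p = 0.0394), Ccl6 (0.58) and Cxcl9 (1.50) were weaker. Ccl3 was not called on dropping sham A (0.182), sham B (0.087), I/R B (0.0667), I/R C (0.136) or I/R D (0.0772). Ccl6 was not called on dropping sham A (0.0582), sham B (0.0876), sham D (0.109), I/R C (0.102) or I/R D (0.113) or with centred arrays (0.0503). Cxcl9 was not called on dropping sham A (0.082), sham B (0.069), sham D (0.0515), I/R B (0.0551), I/R C (0.072) or I/R D (0.0623). The neutrophil attractants Cxcl1 (0.15, limma adjusted p = 0.691) and Cxcl2 (1.07, limma adjusted p = 0.0865) and the CCR2 ligand Ccl7 (0.99) did not pass.

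Of 17 measured cytokine genes 3 (17.6%) were called higher and 1 (5.9%) lower, against 5.04% and 3.13% of all genes. Il1b, which encodes interleukin 1 beta, rose from 6.10, 6.46 and 6.50 to 8.60, 9.41 and 9.29 (change 2.74, SE 0.33, limma adjusted p = 3.34e-05). Tnf rose from 7.68, 7.96 and 8.06 to 9.15, 9.64 and 9.49 (change 1.53, SE 0.24, limma adjusted p = 0.000641). Il1rn, the antagonist of the interleukin 1 receptor, rose from 5.07, 4.88 and 4.78 to 6.49, 6.19 and 6.01 (change 1.32, SE 0.23, limma adjusted p = 0.0014). These 3 sets of arrays did not overlap between groups. Il6 went the other way, from 6.58, 6.76 and 6.92 to 5.90, 5.42 and 4.91, and its limma adjusted p stayed between 0.00353 and 0.0465 over the settings tried. The interleukin 6 receptor gene Il6ra fell as well, from 9.52, 9.19 and 9.57 to 8.30, 8.35 and 8.44 (change -1.06, SE 0.18, limma adjusted p = 0.00107). Il1a (0.27), Il18 (0.25) and Osm (0.92) did not pass.

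Of 8 enzymes of prostaglandin, nitric oxide, itaconate and oxysterol synthesis 3 were called higher. Acod1, which makes itaconate, rose from 5.01, 5.17 and 4.98 to 6.41, 6.61 and 6.40 (change 1.42, SE 0.17, limma adjusted p = 4.03e-05). Ch25h, which makes the antiviral 25-hydroxycholesterol, went from a background 3.47, 4.34 and 3.28 to 7.90, 8.35 and 8.10. The prostaglandin synthase gene Ptgs2 (1.89, limma adjusted p = 0.0344) lost its call on dropping sham A (0.0887), sham B (0.122), sham D (0.0554), I/R B (0.0909), I/R C (0.11) or I/R D (0.0513) or with trend and robust settings (0.0663). Nos2 (0.12) and Arg1 (0.17), which compete for arginine, did not pass. Among 10 genes of the inflammasome and of cell death the necroptosis effector Mlkl rose from a background sham mean by 1.05 and the lipopolysaccharide-sensing caspase gene Casp4 by 0.81 (limma adjusted p = 0.00342). Nlrp3 (-0.28), Casp1 (-0.10) and the pore-forming Gsdmd (-0.24) did not pass.

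Genes of the dividing cell made up the other large group of rises. Of 61 measured mitosis genes 57 were called higher and 0 lower, with a median change of 2.15, and leaving out single TLR4-/- arrays left the number at 57. The array means of the list were 4.65 to 5.06 after sham, near background, and 6.97 to 7.10 after I/R. All 12 measured mitotic cyclins, kinases and phosphatases, all 11 kinesins and all 11 kinetochore and checkpoint genes were called. Ccna2, the cyclin of S phase and early mitosis, went from 5.08, 4.62 and 5.01 to 8.81, 8.46 and 8.41 (change 3.66, SE 0.32, limma adjusted p = 1.28e-06). Cdk1, the kinase that starts mitosis, went from 5.27, 5.60 and 5.58 to 8.03, 7.87 and 8.28 (change 2.58, SE 0.16, limma adjusted p = 7.03e-08). Top2a, the topoisomerase that separates sister chromatids, went from 5.33, 5.09 and 5.82 to 9.09, 8.85 and 8.85 (change 3.52, SE 0.24, limma adjusted p = 9.23e-08). Mki67, which coats mitotic chromosomes and marks cycling cells, went from 4.97, 4.96 and 5.33 to 8.31, 8.23 and 8.17 (change 3.15, SE 0.19, limma adjusted p = 4.67e-08). The 3 I/R arrays of Mki67 were nearly level.

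Within mitosis the members ranged from 4.03 for Birc5, a subunit of the chromosomal passenger complex, to -0.07. Its partner kinase gene Aurkb went from 5.45, 5.50 and 5.84 to 7.17, 7.87 and 7.59 (change 1.95, SE 0.23, limma adjusted p = 3.29e-05). Foxm1, the transcription factor of the G2 and M phase programme, rose by 2.15. Plk1, a kinase of mitotic entry, rose by 1.95 and Cdc20, which switches on the anaphase-promoting complex, by 1.34. Bub1 (3.87), the motor gene Kif11 (3.41) and the kinetochore gene Nuf2 (3.40) rose from sham means in background. Of the 7 genes of anaphase and mitotic exit 4 were called.

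DNA replication genes rose with them. Of 40 measured members 36 were called higher and 0 lower, with a median of 1.21, and 30 to 34 without single arrays. All 14 licensing genes, which load the replicative helicase, were called. The helicase subunit gene Mcm6 went from 6.34, 5.92 and 6.23 to 8.62, 8.25 and 8.41 (change 2.26, SE 0.15, limma adjusted p = 8.67e-08), and Mcm2, Mcm3, Mcm4, Mcm5 and Mcm7 rose by 1.36, 0.98, 1.19, 1.50 and 1.55. Prim1, the primase that starts each new strand, went from 5.47, 4.50 and 4.99 to 7.86, 7.74 and 7.96 (change 2.87, SE 0.21, limma adjusted p = 1.86e-07). Rrm2, the regulated subunit of ribonucleotide reductase, went from 4.59, 5.34 and 5.39 to 8.02, 7.69 and 7.81 (change 2.74, SE 0.24, limma adjusted p = 9.94e-07). No sham array reached an I/R array in these genes. Pcna, the sliding clamp, which also works in repair, had high sham values of 10.36, 10.29 and 10.39 and rose to 11.14, 10.96 and 11.05, a change of 0.71 (SE 0.13, limma adjusted p = 0.00165).

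Of 23 measured regulators of entry into S phase 7 were called higher and 0 lower. Ccne1, the cyclin that drives the G1 to S transition, went from 4.97, 4.45 and 5.20 to 6.40, 5.96 and 6.30 (change 1.34, SE 0.17, limma adjusted p = 5.48e-05). Ccne2 (2.07) and the repressor gene E2f8 (2.04) rose from background sham means. Cdkn2c, an inhibitor of CDK4 and CDK6, rose by 1.49. E2f1 (0.69) was not called on dropping sham A (0.0676), sham B (0.0584) or I/R D (0.0753). The D-type cyclins, which link growth signals to the cycle, did not pass, with changes of -0.19 for Ccnd1, -0.21 for Ccnd2 and -0.01 for Ccnd3. Their partners Cdk4 (0.50) and Cdk6 (0.18) did not pass either.

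Of 16 genes that repair DNA at the replication fork 12 were called higher. They included Rad54l (1.53), the fork protection gene Tipin (1.54), the checkpoint adaptor Clspn (1.00) and Fanci (1.18) of the Fanconi pathway. Of 11 targets of p53, 0 were called higher and 1 (9.1%) lower, a list too short to tell from the 5.04% and 3.13% of all genes. The antiproliferative gene Btg2 was the one called, from 10.33, 10.62 and 10.50 to 9.97, 9.94 and 9.63 (change -0.64, SE 0.14, limma adjusted p = 0.00732).

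Genes of resting microglia fell. Of 30 measured homeostatic genes 18 were called lower and 0 higher, against 3.13% and 5.04% of all genes, with a median of -0.53. For 25 of the 30 all I/R arrays lay below all sham arrays, against 12.5% of all genes. When single arrays were left out the count ran from 11, without sham array A, to 17. Gpr165, an orphan receptor, fell from 9.85, 9.38 and 9.82 to 8.06, 7.72 and 7.74 (change -1.84, SE 0.19, limma adjusted p = 6.88e-06). Adgrg1, an adhesion receptor, fell from 10.06, 10.16 and 10.13 to 8.92, 9.07 and 9.32 (change -1.01, SE 0.17, limma adjusted p = 0.000783). Slc2a5, a fructose transporter, fell from 10.08, 10.09 and 10.14 to 8.54, 9.04 and 9.55 (change -1.06, SE 0.20, limma adjusted p = 0.00321). The I/R arrays of Slc2a5 spread over about 1 log2 unit, with B the lowest.

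Markers used to tell microglia from other macrophages were called in part. Tmem119 went from 11.45, 11.42 and 11.37 to 10.76, 10.79 and 11.07 (change -0.54, SE 0.12, limma adjusted p = 0.00873). Siglech went from 11.57, 11.42 and 11.52 to 10.97, 10.81 and 11.07 (change -0.55, SE 0.12, limma adjusted p = 0.00802). P2ry12, the purine receptor that guides processes to damage, stood at 11.42, 11.22 and 11.22 and 11.12, 10.91 and 10.83 without overlap, but its change of -0.33 did not pass (limma adjusted p = 0.0904). The related P2ry13 (-0.52, limma adjusted p = 0.0104) was called, though not on dropping sham A (0.0515) or I/R D (0.0522) or with only the 6 TLR4-/- arrays in the model (0.0538). Cx3cr1, the fractalkine receptor, was called lower (-0.38), though not on dropping sham A (0.151), sham B (0.0891), sham D (0.0564), I/R C (0.107) or I/R D (0.128) or with only the 6 TLR4-/- arrays in the model (0.121) or with centred arrays (0.0745). Csf1r (-0.34), Fcrls (-0.14), Trem2 (-0.17) and Olfml3 (-0.31) did not pass. Entpd1, the ectoenzyme CD39 that degrades extracellular ATP, fell from 11.56, 11.36 and 11.45 to 10.79, 10.69 and 10.79 (change -0.70, SE 0.13, limma adjusted p = 0.00281).

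Among the transcription factors of the microglial programme 6 of 11 were called lower and 0 higher. Sall1, which keeps microglial identity, fell from 10.44, 10.25 and 10.40 to 9.61, 9.62 and 9.68 (change -0.73, SE 0.15, limma adjusted p = 0.00466), and Sall3 fell too (-0.68). Smad3, which carries TGF-beta signals to the nucleus, fell from 8.55, 8.68 and 8.58 to 7.82, 7.91 and 7.85 (change -0.75, SE 0.14, limma adjusted p = 0.00235). Jun fell from 10.63, 10.89 and 10.58 to 10.05, 10.01 and 9.57 (change -0.82, SE 0.15, limma adjusted p = 0.00196). The groups did not overlap in any of these. Mef2a (-0.61) was not called on dropping sham A (0.0683), I/R C (0.0502) or I/R D (0.0527), and Runx1 (-0.55) was not called on dropping sham A (0.0631), sham D (0.0644) or I/R B (0.0656) or with only the 6 TLR4-/- arrays in the model (0.0689). The macrophage factor gene Spi1 did not pass (-0.18). In the TGF-beta signalling list, which shares Smad3, 3 of 14 were called lower and 0 higher (median -0.32). Its receptor gene Tgfbr1 (-0.57) was not called on dropping sham A (0.0595), I/R C (0.0629) or I/R D (0.0547), and Tgfb1 (0.04) and Tgfbr2 (-0.30) did not pass.

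Genes of disease-associated microglia, a state found around plaques and in injury, rose in part. Of 28 measured members 16 were called higher and 0 lower, with a median of 0.74, and 13 to 16 without single arrays. The list means were 8.32 to 8.49 after sham and 9.47 to 9.62 after I/R. Lgals1, which encodes galectin 1, went from 6.79, 6.38 and 7.03 to 9.57, 10.24 and 10.17 (change 3.26, SE 0.24, limma adjusted p = 2.15e-07). Clec7a, the beta-glucan receptor dectin 1, went from 5.83, 6.40 and 6.42 to 8.93, 9.24 and 8.42 (change 2.65, SE 0.33, limma adjusted p = 4.64e-05). Cst7, an inhibitor of lysosomal proteases, went from 8.12, 9.38 and 8.41 to 11.02, 11.27 and 11.31 (change 2.57, SE 0.31, limma adjusted p = 4.1e-05), with sham array B about 1 log2 unit above the other sham arrays. Lpl, which frees fatty acids from lipoproteins, went from 6.11, 6.04 and 6.43 to 8.92, 8.73 and 8.23 (change 2.44, SE 0.20, limma adjusted p = 4.9e-07). Csf1, a growth factor of microglia, rose by 1.84, Igf1 by 1.43, Axl, which binds apoptotic cells, by 2.25 and Itgax by 2.33. Apoe (0.62, limma adjusted p = 0.0344) was not called on dropping sham A (0.161), sham D (0.0884), I/R B (0.0665), I/R C (0.0722) or I/R D (0.103). Among the members that did not pass were Tyrobp (-0.02), Cd68 (-0.04), Ctsd (-0.09), Ctsb (0.13) and Lyz2 (0.11).

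Receptors for uptake were raised singly. Of 11 scavenger and lipid receptors 5 (45.5%) were called higher and 0 lower, against 5.04% and 3.13% of all genes, while the median was -0.025. Msr1, a receptor for modified lipoproteins, went from 5.42, 5.03 and 5.40 to 8.72, 8.41 and 7.82 (change 3.03, SE 0.30, limma adjusted p = 4.42e-06). Scarb1 rose by 1.27 and Cd36 by 0.88, while Mrc1 (-0.48) and Lrp1 (-0.06) did not pass. Fcgr4, an activating receptor for antibodies, went from 7.39, 7.79 and 8.12 to 9.98, 10.10 and 10.38 (change 2.39, SE 0.25, limma adjusted p = 6.88e-06), and the other 4 Fc receptor genes did not pass. Of 12 complement genes 2 (16.7%) were called higher and 0 lower, against 5.04% and 3.13% of all genes, with a median of 0.06. The 2 were Cfb of the alternative pathway, from 5.97, 5.57 and 5.42 to 7.92, 8.15 and 8.41 (change 2.51, SE 0.26, limma adjusted p = 7.84e-06), and C4b (1.40, SE 0.15). The C1q chains, already high after sham, did not pass, with -0.25 for C1qa.

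Surface proteins that restrain or stimulate other cells changed in both directions. Of 24 measured genes 9 were called higher and 4 lower. Lilrb4a, an inhibitory receptor, went from 6.71, 7.08 and 6.88 to 9.62, 9.59 and 9.57 (change 2.70, SE 0.16, limma adjusted p = 3.59e-08), with the I/R arrays nearly level. Cd274, the PD-1 ligand, rose by 1.21 (SE 0.21). Pdcd1, which encodes PD-1 itself, rose from 5.60, 6.00 and 5.21 to 6.66, 6.82 and 7.50 (change 1.39, SE 0.21, limma adjusted p = 0.000343). Siglece, an inhibitory sialic acid receptor, fell from 9.60, 9.43 and 9.57 to 8.20, 8.20 and 8.62 (change -1.19, SE 0.18, limma adjusted p = 0.000319). Cd80, a co-stimulatory ligand for T cells, fell from 8.01, 8.44 and 8.23 to 6.92, 7.17 and 6.84 (change -1.25, SE 0.19, limma adjusted p = 0.000355), and its partner Cd86 (-0.02) did not pass. Cd300a, another inhibitory receptor, fell (change -0.74, SE 0.12).

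Some matrix, cytoskeletal and calcium-binding genes rose beside Fn1. Of 17 matrix and integrin genes 6 were called higher, 1 lower and 10 not (median 0.08), and of 16 annexins, S100 proteins and vimentin 8 were called higher and 0 lower. Vim, the intermediate filament of motile cells, went from 6.16, 5.75 and 5.60 to 8.44, 9.13 and 8.68 (change 2.91, SE 0.19, limma adjusted p = 7.71e-08). Anxa5, which binds exposed phosphatidylserine, went from 8.12, 8.28 and 8.55 to 9.76, 10.23 and 9.85 (change 1.63, SE 0.21, limma adjusted p = 7.02e-05). S100a4 went from 4.85, 4.67 and 4.66 to 6.35, 6.12 and 6.17 (change 1.48, SE 0.13, limma adjusted p = 1.35e-06). Tgfbi, a matrix protein induced by TGF-beta, went from 8.81, 8.54 and 9.20 to 9.92, 10.22 and 10.39 (change 1.32, SE 0.18, limma adjusted p = 0.000112). The hyaluronan receptor gene Cd44 rose by 1.35, Thbs1 by 1.05 and the fibronectin receptor chain Itga5 by 0.95. Hbegf, a growth factor, fell from 6.93, 6.91 and 6.49 to 5.38, 5.80 and 5.43 (change -1.24, SE 0.20, limma adjusted p = 0.000682).

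Several of these genes are also markers of monocytes, so markers of other cells were read on the same arrays. In the monocyte list 6 of 12 measured genes were called higher and 0 lower (median 1.11), and its array means were 4.64 to 4.79 after sham and 6.19 to 6.25 after I/R. The 6 were Fn1, Vim, S100a4, Cd44, Ms4a4c (2.89, from a background sham mean) and Plac8, which went from 3.88, 4.16 and 3.71 to 6.79, 7.37 and 8.13. Ccr2, the receptor that defines classical monocytes, stood at 5.98, 5.84 and 5.49 and 5.69, 5.49 and 5.48, and its change of -0.22 did not pass (limma adjusted p = 0.501). The list moved with I/R beside every gene group described here, and its part in these results was not tested. Of the neutrophil list 0 of 13 genes were called higher and 1 lower, and S100a8, S100a9 and Ly6g lay in background in both groups. None of the markers of T and NK cells (12), B cells (7), oligodendrocytes (10), neurons (12) or erythroid cells (2) was called in either direction. In background in both groups lay 8 of the T and NK cell, 5 of the B cell and 7 of the neuron markers. Only 2 of 6 erythroid entries were measured. With 8.17% of all genes called, 0 calls in lists this short cannot show that these cells were absent or unchanged. Of the border-associated macrophage list 1 of 12 was called higher, the sialic acid receptor gene Siglec1 (1.13, SE 0.19), and 1 lower. Each share is 8.3%, near the 5.04% and 3.13% of all genes for so short a list.

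**Figure D3:**
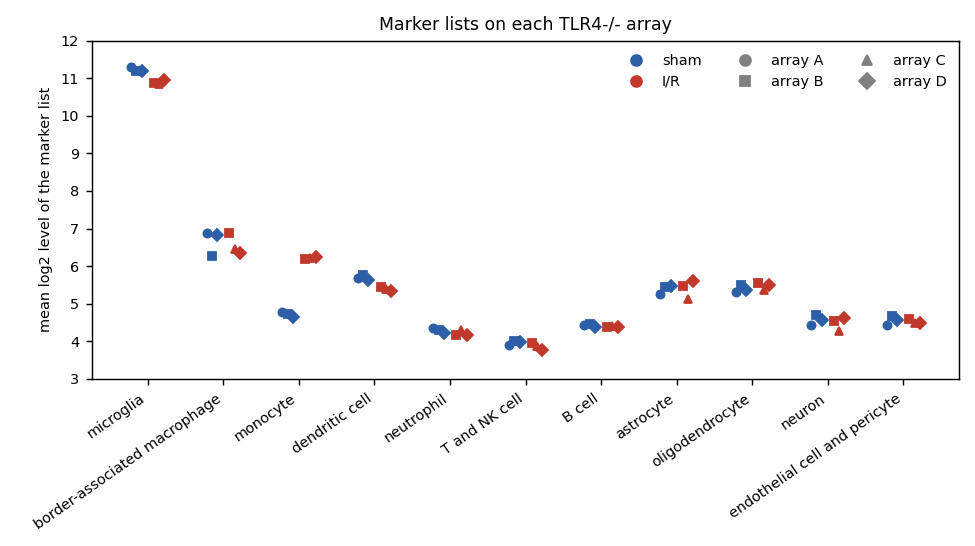
Mean log2 level of 11 marker lists on each TLR4-/- array, sham in blue and I/R in red, with symbols for the title letter. The monocyte list lies between 6.19 and 6.25 after I/R against 4.64 to 4.79 after sham, while the microglia list lies between 10.84 and 10.95 against 11.19 to 11.29.

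Some marker lists varied between arrays of 1 group. Border-associated macrophage means were 6.89, 6.27 and 6.82 on sham arrays A, B and D and 6.88, 6.45 and 6.35 on I/R arrays B, C and D. Mrc1, one of these markers, stood at 9.65, 8.94 and 9.71 and 9.69, 8.69 and 8.49. The neuron list was lowest on I/R array C, at 4.26 against 4.42 to 4.69 on the others. The list means of dendritic cell markers were 5.63 to 5.75 after sham and 5.33 to 5.43 after I/R, and the only called member was Fscn1, an actin-bundling gene that microglia also express, from 10.06, 10.40 and 10.30 to 9.05, 9.07 and 9.17. Of the endothelial list only the adhesion gene Pecam1 was called, which macrophages express too, from 7.14, 7.28 and 7.05 to 6.09, 5.72 and 6.39 (change -1.09, SE 0.18, limma adjusted p = 0.000883). Of the astrocyte list only the glutamate transporter gene Slc1a3 was called, from 8.07, 8.52 and 8.45 to 7.63, 7.51 and 7.65 (change -0.75, SE 0.15, limma adjusted p = 0.00377).

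Metabolic genes rose in part. Of 23 glycolysis and hypoxia genes 10 were called higher and 0 lower (median 0.34), and 7 to 11 without single arrays. Pgk1, a glycolytic kinase, went from 8.66, 9.10 and 9.34 to 10.49, 10.71 and 10.83 (change 1.64, SE 0.21, limma adjusted p = 5.98e-05). Ldha, which makes lactate, went from 9.94, 10.36 and 10.21 to 10.94, 11.21 and 11.24 (change 0.96, SE 0.17, limma adjusted p = 0.00196). Hif1a, the oxygen-regulated transcription factor, went from a sham mean of 8.90 ± 0.09 (SD, n = 3) to 9.88, 9.79 and 9.63 (change 0.86, SE 0.14, limma adjusted p = 0.00072). Hexokinase 2 gene Hk2 (-0.38), the glucose transporter gene Slc2a1 (0.13) and Vegfa (0.07) did not pass.

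Of 25 oxidative phosphorylation genes 13 were called higher and 0 lower (median 0.61), and 7 without I/R array C, without I/R array D or without sham array A. Ndufa1, a subunit of complex I, went from 6.64, 7.08 and 7.10 to 8.85, 8.77 and 8.69 (change 1.83, SE 0.22, limma adjusted p = 3.38e-05). The calls of Cox6c (1.16), Ndufa4 (1.09), Ndufs6 (0.95) and Cox7a2 (0.86) held in all settings tried. Of 23 constitutive proteasome genes 9 were called higher (median 0.43). That count fell to 0 without I/R array C, 3 without I/R array D, 2 without sham array A and 2 without sham array B.

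Lipid handling changed at single genes. Plin2, which coats lipid droplets, went from 8.05, 8.77 and 8.66 to 10.15, 10.65 and 10.49 (change 1.94, SE 0.21, limma adjusted p = 1.1e-05). Of the 17 genes of sterol and fatty acid synthesis 1 (5.9%) was called higher and 0 lower, near the 5.04% and 3.13% of all genes. Cybb, the catalytic subunit of the phagocyte NADPH oxidase, went from 7.09, 6.07 and 7.34 to 9.44, 9.28 and 9.12 (change 2.45, SE 0.28, limma adjusted p = 2.09e-05), with sham array B the lowest. The NRF2 gene Nfe2l2 (-0.13) and its target Nqo1 (0.17) did not pass. Of 19 lysosomal genes 3 (15.8%) were called higher and 0 lower, against 5.04% and 3.13% of all genes, with a median of 0.13. They were led by the glucuronidase gene Gusb (0.68, SE 0.12).

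Of 25 measured immediate-early and heat-shock genes, which also respond to handling of tissue, 0 were called higher and 5 lower (median -0.31). Jun and Btg2, described above, were called in every setting. Fos (-0.27), Egr1 (-0.49) and the heat-shock gene Hspa1a (-0.92, limma adjusted p = 0.456) did not pass. Of 16 genes of the unfolded protein response 2 (12.5%) were called higher and 0 lower (median 0.008). These shares are near the 5.04% and 3.13% of all genes for so short a list. The chaperone gene Hspa5 (0.03) and the factor gene Ddit3 (-0.01) of this response did not pass.

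The wild-type arrays show how the same comparison ran with the receptor. The wild-type and TLR4-/- comparisons share no array. In wild type 1950 genes (9.78%) were called, 1226 (6.15%) higher and 724 (3.63%) lower. Of the 1004 genes called higher in TLR4-/-, 996 also had a positive change in wild type, and of the 624 called lower 615 had a negative one. Genes called higher in both numbered 805, which is 80.2% of the TLR4-/- calls and 65.7% of the wild-type calls. Genes called lower in both numbered 337, which is 54.0% and 46.5%. Over all genes the changes had a Pearson correlation of 0.839, a description over genes that are not independent replicates. In opposite directions 1 gene was called, Cdc26 of the anaphase-promoting complex (0.55 in TLR4-/- and -0.45 in wild type), and its TLR4-/- call ended on dropping sham A (0.16), sham D (0.0801), I/R B (0.136) or I/R C (0.107) or with only the 6 TLR4-/- arrays in the model (0.0667) or with trend and robust settings (0.0516).

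The difference of the changes was tested directly. Of 19938 genes 0 passed limma for the interaction, TLR4-/- change minus wild-type change, and the lowest adjusted p was 0.382. At an unadjusted p under 0.05 there were 762 genes (3.82%). The median SE of a difference was 0.201. The count of 0 held under centring, trend and robust settings, array weights, leaving out dim genes and averaging rows, where the lowest adjusted p ran from 0.209 to 0.367. Without wild-type sham array C 1 gene was called, Ifitm3 (difference 1.70, limma adjusted p = 0.0142). On wild-type sham array C Ifitm3 stood at 8.50, against 9.56, 9.40 and 9.65 on A, B and D. With all arrays its difference was 1.44 (SE 0.31, limma adjusted p = 0.51).

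The antiviral effectors and the mitosis genes stood on different sides of the wild-type changes, without passing the test gene by gene. Of the 36 antiviral effectors 32 had a greater change in TLR4-/-, with a median difference of 0.41, and 13 (36.1%) had an unadjusted p under 0.05, all greater, against 3.82% of all genes. Of the 61 mitosis genes 57 had a smaller change, with a median difference of -0.42, and 16 (26.2%) had an unadjusted p under 0.05, all smaller. Without TLR4-/- sham array D that number was 10 (16.4%), and 11 mitosis genes had a greater change instead of 4. With the title letter as a replicate block 14 mitosis genes had a greater change, and 13 (21.3%) had an unadjusted limma p under 0.05. The 40 DNA replication genes were more even, with 24 smaller and 16 greater changes and a median difference of -0.05. Of these 5 (12.5%) had an unadjusted limma p under 0.05, all smaller. No gene of these lists passed after adjustment over all genes. For the effectors the median level difference, TLR4-/- minus wild type, was -0.37 after sham and 0.14 after I/R. For mitosis it was -0.10 after sham and -0.52 after I/R. Over the settings tried, the median difference of the effectors ran from 0.315 to 0.595 and that of mitosis from -0.486 to -0.271.

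**Figure D4:**
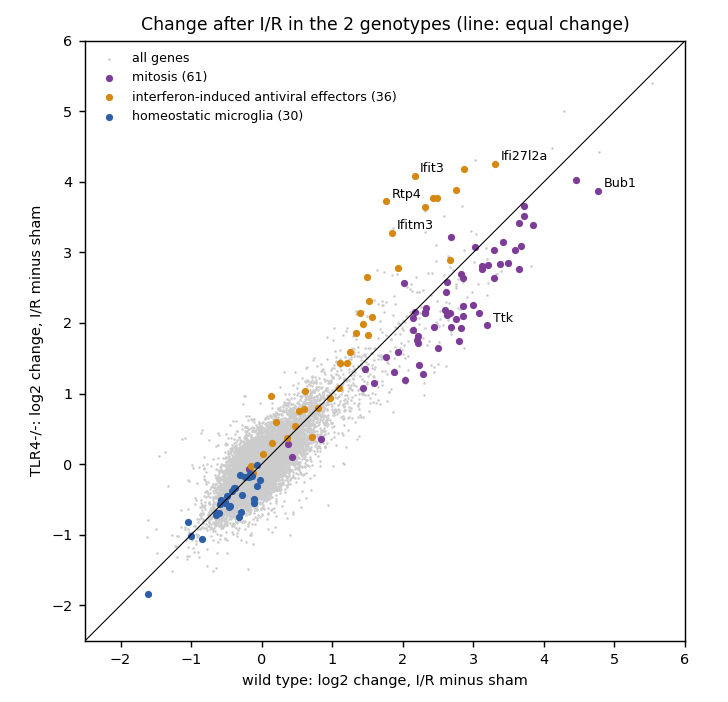
Log2 change after I/R in TLR4-/- microglia (vertical axis) against that in wild-type microglia (horizontal axis) for 19938 genes; the line marks equal change. Of the 36 antiviral effectors (orange) 32 lie above the line and of the 61 mitosis genes (purple) 57 lie below it; no gene passed the test of the difference after adjustment.

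Single genes show the size of these differences. Ifit3 had a change of 4.09 in TLR4-/- and 2.17 in wild type, a difference of 1.92 (SE 0.37, limma adjusted p = 0.382). Rtp4 had 3.72 and 1.77, a difference of 1.95 (SE 0.39). On the other side, Ttk, a kinase of the spindle checkpoint, had the smallest p of the difference. It went from 4.05, 4.37 and 4.32, in background as was its wild-type sham mean, to 6.15, 6.15 and 6.34 in TLR4-/-, a change of 1.97 against 3.20 in wild type, a difference of -1.23 (SE 0.21, unadjusted p = 2.93e-05, limma adjusted p = 0.382). The repair gene Brca2 had 0.40 against 1.38, and Esco2, which joins sister chromatids, 1.42 against 2.50, both genes from sham means in background in both genotypes, which limits the size of each change. Il1b had 2.74 against 1.64, a difference of 1.11 (SE 0.43). None of these differences passed after adjustment.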

How the data were processed

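Total RNA of sorted microglia was hybridised to 14 arrays, and the 6 TLR4-/- arrays form the comparison. The deposited log2 values were made by the authors with RMA in oligo, per the submitters' processing notes, which name no versions; RMA brings arrays to one distribution, so only relative changes can be read. Of 35556 rows 21789 have 1 gene symbol, 1621 several and 12146 none here; 21698 of the first matched a RefSeq gene. A gene's row with the highest mean was kept, which gave 19938 genes, 999 of them with more than 1 row. Limma 3.58.1 in R 4.3.3 (lmFit, eBayes) was fitted to all 14 arrays with 4 group means, and p-values were adjusted by Benjamini-Hochberg over all genes (threshold 0.05). The fit was tested on simulated data. Background is the 95th percentile of 1027 olfactory receptor genes. Named genes are the 40 highest and 40 lowest called, the 20 highest and 20 lowest above background in both groups, the 15 smallest p of the change and of the difference, the 20 called genes of highest level, and members of 52 lists (870 of 953 entries measured). Members and lists were chosen with earlier results of these data known. Alternatives were other models, scalings and filters, and leaving out single arrays. The number of arrays limits the precision.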

Additional observations from a re-analysis of the deposited data

Results flagged for a closer look

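For 3 named genes all TLR4-/- I/R arrays lay on one side of the TLR4-/- sham arrays, while all wild-type I/R arrays lay on the other side of theirs. The predicted gene 1700010I14Rik had a TLR4-/- change of -0.697 against 0.33 in wild type (difference -1.03), and its TLR4-/- call ended without sham array A (adjusted p 0.0637) or B (0.06). Tada2a, a subunit of histone acetyltransferase complexes, had 0.296 against -0.51 (difference 0.80) and was not called in TLR4-/-. The zinc finger gene Zfp599 had -0.578 against 0.94 (difference -1.52) and was not called in TLR4-/- either. The difference did not pass for any of them (limma adjusted p = 0.382 each). Over all genes, the arrays of the genotypes separated in opposite directions for 16 of 19938 (0.0802%).

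Rows outside the gene-level comparison also carried signal. In a fit over all rows, 126 of 1621 rows with several symbols were called (7.77%; 98 higher, 28 lower), and 248 of 12146 rows unnamed here (2.04%; 140 higher, 108 lower). Among rows with 1 symbol the share was 5.77%, 830 higher and 427 lower.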

How the results depend on the processing

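Among the 371 called genes open to naming, no TLR4-/- change reversed its sign under the settings, and 94 lost their call in at least one. Against 1628 called genes, 1424 were called with only the 6 TLR4-/- arrays in the model (1276 of them also in the reported calls), 1385 with centred arrays (1356), 1536 with trend and robust settings (1493), 1969 with array weights (1588), 1771 without dim genes (1547) and 1636 with averaged rows (1602). Centring lowered the count of lower genes to 398. Leaving out single TLR4-/- arrays gave 970 to 1497 called genes, 658 to 923 higher, 312 to 574 lower and 459 to 539 at a fold of at least 2; without sham array A 946 of 970 and without I/R array C 1011 of 1071 were among the reported calls. The same fits gave 11 to 17 homeostatic genes lower, 7 to 12 oxidative phosphorylation genes higher and 0 to 9 proteasome genes higher. The difference of changes gave 0 to 1 genes. Whether title letters pair the samples could not be decided. Deviations of same-letter arrays, the only such pairs, correlated at 0.049 (B) and 0.139 (D). Those of arrays with different letters correlated at -0.134 to 0.088. With the letter as a replicate block 1522 genes were called, 1342 of them among the reported calls. Calls that ended in that fit included Apoe (limma adjusted p = 0.0855), Ccl3 (0.0878), Cx3cr1 (0.0582) and Relb (0.123). Those of Sting1 (0.0572), Tlr1 (0.0818) and Tlr9 (0.0791) ended there too. Signal near background limits 184 genes called higher.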

Other observations

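Genes in no list also fell. Upk1b, a gene of the tetraspanin family, went from 11.07, 10.89 and 10.86 on the sham arrays to 9.90, 9.65 and 9.79 on the I/R arrays. Itga9, an integrin chain, went from 8.94, 8.83 and 8.84 to 7.76, 7.70 and 7.92 (limma adjusted p = 0.000429). Notch2, a receptor of cell-to-cell signalling, went from 8.50, 8.64 and 8.70 to 7.64, 7.50 and 7.67 (limma adjusted p = 0.000139). The groups overlapped in none of these. Among genes of high level, Txnip, which restrains glucose uptake, went from 11.32, 11.30 and 11.35 to 10.66, 10.67 and 10.72 (limma adjusted p = 0.000682). The interleukin 7 receptor gene Il7r had a change of -1.02 and the vascular receptor gene Calcrl one of -1.08. No cause was tested.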
